A study of Rattus norvegicus with 11 samples.

Results

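The common hemorrhage model (IC) was compared with normal striatum in 5 rats, the 3 IC rats and the 2 Normal rats among the 11 rats of the series, and all genes were read in both directions. All were adult male Sprague-Dawley rats. IC rats were put under isoflurane anesthesia and received 0.2 U of bacterial collagenase VII-S in 1.0 μL of saline, an enzyme that digests vessel walls, by stereotaxic injection into the right striatum. Normal rats received neither collagenase nor aspiration and were not described as sham-operated, so the injection and the hemorrhage cannot be told apart here. Striatum of the injected side, and the matching region of the Normal rats, was taken at day 3, with 1 poly(A) library per rat. The other 6 rats, of the severe model (IS, 0.6 U in 3.0 μL) and of the severe model with aspiration of the hematoma (IS-HA), entered the filter on low counts, the normalization and the shared estimate of the spread between rats, and no comparison.

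Blood that leaves a vessel brings red cells, plasma proteins and leukocytes into the striatum, a nucleus made mostly of GABAergic projection neurons with a few percent of interneurons among astrocytes, oligodendrocytes and microglia. Red cells lyse over days and release hemoglobin, and its heme is cut by heme oxygenase into biliverdin, carbon monoxide and iron, which ferritin stores. Resident microglia and macrophages from the blood take up red cells and debris, while astrocytes around the clot become reactive. Antigen presentation on MHC class I uses peptides cut by proteasomes, and in immune cells the catalytic subunits LMP7 (Psmb8) and LMP2 (Psmb9) take the place of the constitutive ones. Inflammatory cytokines and interferons raise these subunits.

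Of 15742 genes tested, 1720 were higher in IC (10.9%) and 418 were lower (2.66%), at a log2 fold change of at least 1 and an adjusted p under 0.05. All of the 1720 higher and all of the 418 lower genes had groups of rats that did not overlap. The call itself favors such genes, so this is no separate support. Genes that were not called, such as Apoe and Rela, could separate the groups as well, and the share over all tested genes was not taken. The changes upward were larger: 978 genes rose by a log2 fold change of at least 2 and 261 by at least 4, while 86 fell by at least 2. The median log2 fold change was 2.20 among the higher genes, -1.46 among the lower genes and 0.003 over all genes tested. Genes called higher took 2.41% and 2.21% of the TPM (a transcript share, corrected for gene length and library depth) in the Normal rats and 8.21%, 13.1% and 9.89% in IC replicates 2, 3 and 4. The IC rats were ordered: replicate 3 had the highest level in 1324 of the 1720 higher genes and replicate 2 the lowest of the 3 in 1383, so replicate 2 lay nearest to the Normal rats. Leaving out 1 of the 2 Normal rats took the count of higher genes to 1039 (without Normal replicate 1) and 793 (without Normal replicate 3). The count of lower genes moved far more with the rats fitted. Leaving out IC replicate 3 gave 1210 higher and 97 lower genes, and leaving out IC replicate 4 gave 1439 and 127. The lower genes numbered 965 without IS-HA replicate 2, the smallest library of the fit, and 1087 with only the IC and Normal rats in the fit. A fit with fewer rats also has fewer to test with, and why the counts moved was not tested.

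**Figure D1:**
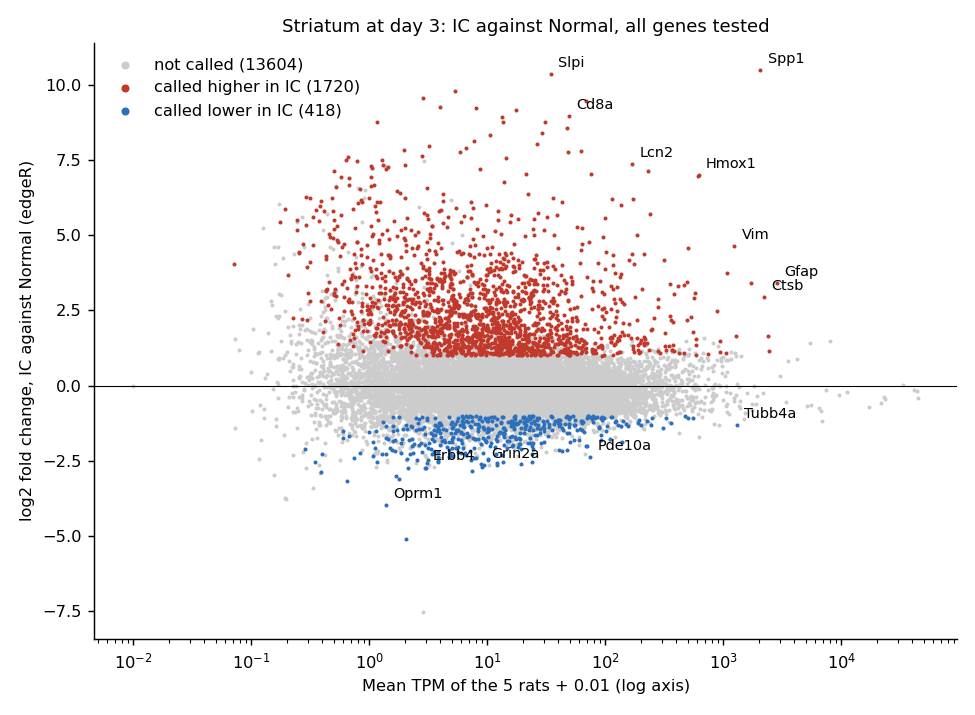
Each point is 1 of the 15742 genes tested, at its mean TPM over the 5 rats plus 0.01 (log axis) and its log2 fold change from edgeR, positive where IC was higher. The 1720 genes called higher reach 10.5 and the 418 called lower lie mostly between -1 and -3, so the spread is lopsided upward.

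The libraries held 10819057 to 18817645 counts in the IC rats and 17379496 and 18486883 in the Normal rats, so that 3 counts, taken as the floor of detection, stood at 0.159 to 0.277 CPM. The root mean square difference between rats in log2 CPM was 0.4802 between the Normal rats, 0.4774 to 0.5237 between IC rats and 0.8871 to 1.296 across the groups, and no pair of libraries agreed within sampling noise. Mitochondrial transcripts took 12.6% and 15.4% of counts in the Normal rats and 10.4% to 13.1% in the IC rats. Genes near 0 in the Normal rats passed the filter on counts only through the injured rats, so the count of calls in a list that holds such genes is partly fixed by the filter. The adjusted p-values of such genes carry the same limit. In bulk tissue, fewer cells of a type and less RNA per cell cannot be told apart, and the same holds for gains.

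**Figure D2:**
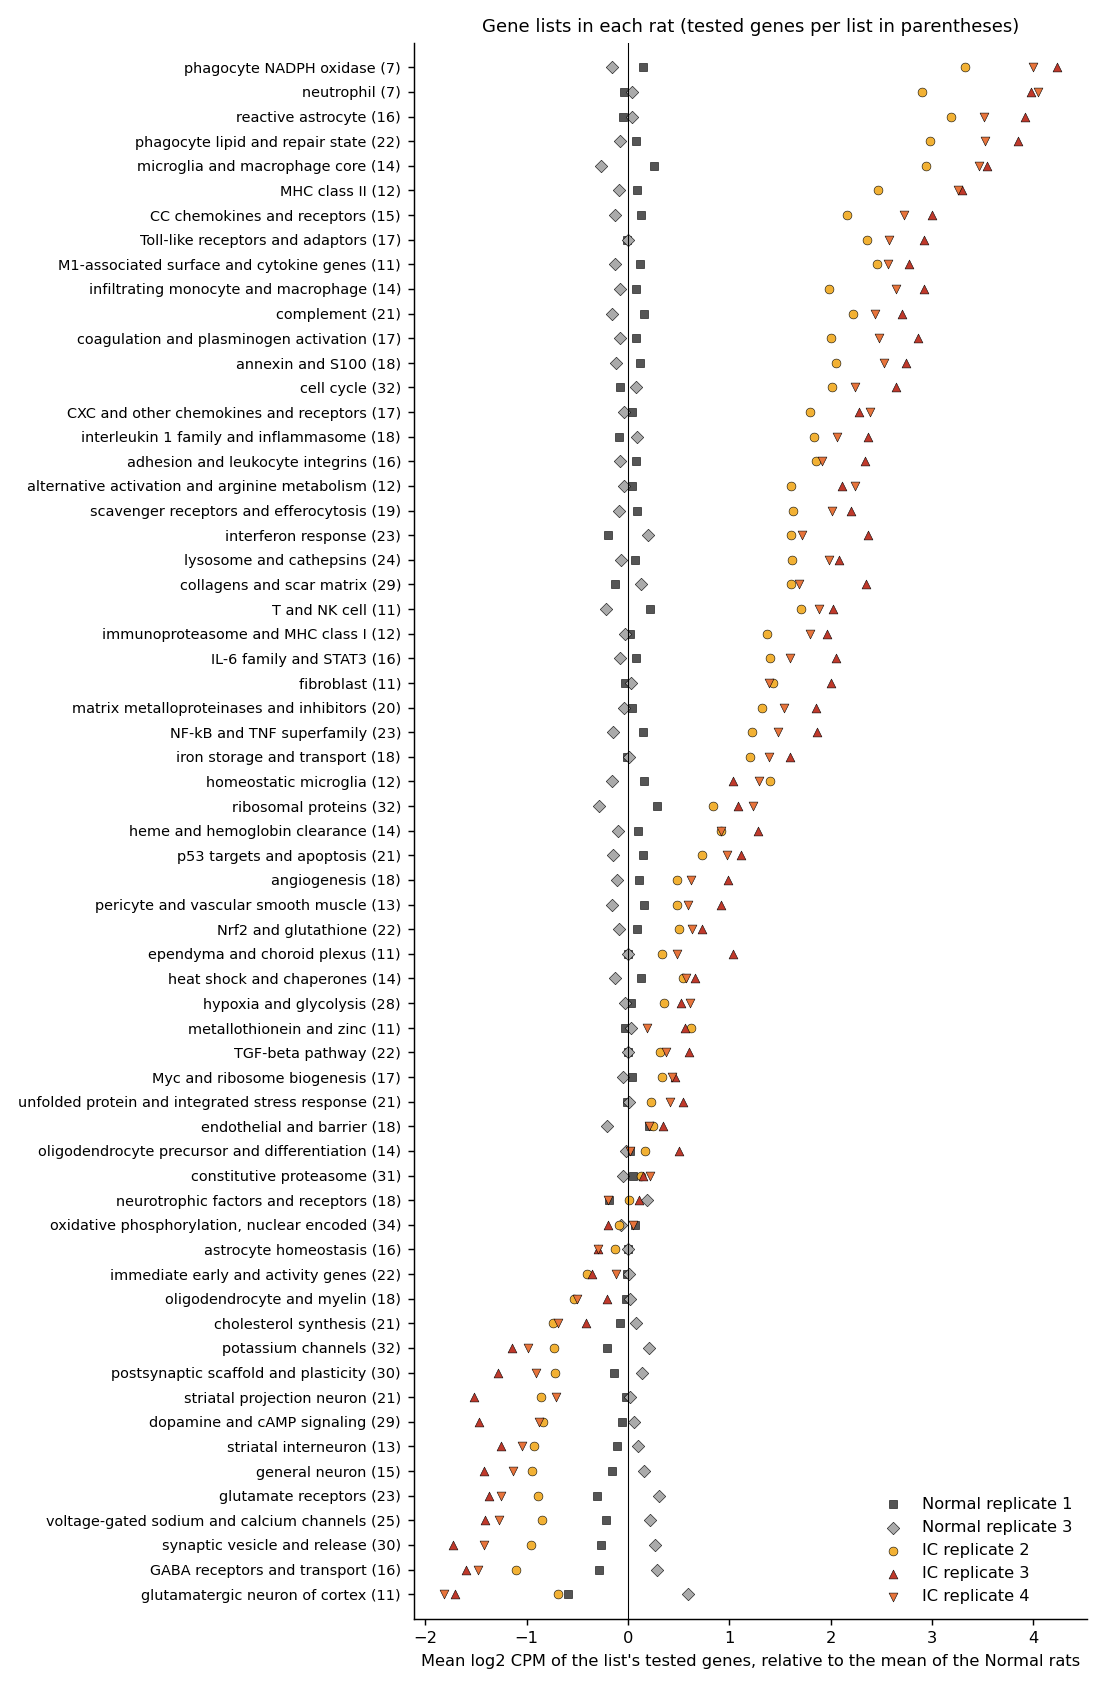
Each row is a gene list, with the number of its tested genes, and each symbol is 1 rat: the mean log2 CPM of the list's genes relative to the mean of the 2 Normal rats. The 3 IC rats lie far to the right for phagocyte, reactive astrocyte and cytokine lists, to the left for neuronal lists, and close to the Normal rats for the constitutive proteasome and oxidative phosphorylation.

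Genes of microglia and macrophages rose. Of the core list that both cell types share, 14 of the 14 tested members rose and 0 fell (median log2 fold change 3.30). Cd68, a lysosomal glycoprotein of active phagocytes, stood at 3.04 and 4.24 TPM in the Normal rats and 171, 425 and 252 TPM in the IC rats (log2 fold change 6.22, SE 0.59, adjusted p = 1.26e-04). Tyrobp, the adaptor that carries signals from TREM2 and other receptors, stood at 33 and 20.4 TPM in the Normal rats and 395, 624 and 502 TPM in the IC rats (log2 fold change 4.18, SE 0.62, adjusted p = 0.0011), and the complement subunit gene C1qb at 86.8 and 49.8 TPM in the Normal rats and 633, 770 and 924 TPM in the IC rats (log2 fold change 3.44, SE 0.45, adjusted p = 6.04e-04). In each of these genes the lowest IC rat was several times above the highest Normal rat. Ptprc, which encodes the leukocyte antigen CD45 and is low in resting microglia, rose by a log2 fold change of 3.55 (adjusted p = 1.68e-04). Aif1, the gene of the microglial stain Iba1, rose by a log2 fold change of 3.05 (adjusted p = 0.00149) and stood at 20.6 and 14.2 TPM in the Normal rats and 139, 171 and 144 TPM in the IC rats.

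Genes that mark homeostatic microglia rose less. 8 of the 12 tested members rose and 0 fell (median log2 fold change 1.26), and the count was 5 to 7 when 1 of the 5 rats was left out. The homeostatic microglia genes that rose numbered 5 without IC replicate 4 or Normal replicate 3. Csf1r, the receptor that microglia need to survive, stood at 57.2 and 49.1 TPM in the Normal rats and 218, 237 and 231 TPM in the IC rats (log2 fold change 2.05, SE 0.18, adjusted p = 1.15e-04), a narrow range within each group. Gpr34, a receptor for lysophosphatidylserine, rose by a log2 fold change of 1.84 (adjusted p = 0.00152), and Cx3cr1, the fractalkine receptor, by a log2 fold change of 1.60 (adjusted p = 6.02e-04). Tmem119, a marker of resident microglia that blood monocytes lack, stood at 31.4 and 21.4 TPM in the Normal rats and 43.3, 25.5 and 37.3 TPM in the IC rats, and the groups differed by a log2 fold change of 0.36 (adjusted p = 0.388), short of the call. Sall1, a transcription factor of resident microglia, stood at 20.3 and 21.6 TPM in the Normal rats and 42.8, 37.7 and 30.3 TPM in the IC rats (log2 fold change 0.76, adjusted p = 0.0276), also short of it. The list is the only one of the microglial and myeloid lists in which IC replicate 3 had the lowest mean level of the 3 IC rats (1.04 against 1.40 in replicate 2 and 1.30 in replicate 4, in log2 CPM above Normal), while it had the highest level in the core list (3.54 against 2.94 and 3.47).

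Genes of monocytes and macrophages from the blood rose as well. 13 of the 14 tested members rose and 0 fell (median log2 fold change 3.0), with 5 to 12 when 1 rat was left out. The monocyte and macrophage genes that rose numbered 5 without Normal replicate 3 and 7 without Normal replicate 1. Ccr2, the receptor that draws monocytes from marrow and blood, was low everywhere but stood at 0.0828 and 0.0282 TPM in the Normal rats and 1.2, 3.44 and 2.22 TPM in the IC rats (log2 fold change 5.19, SE 0.71, adjusted p = 7.6e-04). Lyz2, the lysozyme of myeloid cells, stood at 36.6 and 28.2 TPM in the Normal rats and 464, 1180 and 810 TPM in the IC rats (log2 fold change 4.59, SE 0.66, adjusted p = 9.78e-04). Chi3l1, a chitinase-like protein that macrophages and reactive astrocytes both make, stood at 114 and 88.7 TPM in the Normal rats and 930, 974 and 769 TPM in the IC rats (log2 fold change 3.07, SE 0.22, adjusted p = 8.27e-05). Lyz2 and Chi3l1 were thus high in every IC rat. The exception in the list was Gda, a guanine deaminase that neurons also express, at 16.2 and 28.3 TPM in the Normal rats and 8.32, 6.52 and 4.84 TPM in the IC rats (log2 fold change -1.81, adjusted p = 0.0597), which did not pass the test.

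Neutrophil genes stood at 0 to 2.94 TPM in the Normal rats. Of 14 listed, 7 passed the filter on counts, most of them only through the injured rats, so that the count of calls among them (6 higher, and 3 to 5 when 1 rat was left out) was largely fixed by the filter and is a description. S100a8 and S100a9, the subunits of calprotectin, stood at 0.729 and 1.12 TPM in the Normal rats and 28.4, 122 and 61.4 TPM in the IC rats and at 1.35 and 0.985 TPM in the Normal rats and 27.3, 93.5 and 70 TPM in the IC rats, with a log2 fold change of 6.11 (adjusted p = 0.0142) and a log2 fold change of 5.67 (adjusted p = 0.00292), so every IC rat was above both Normal rats. Mmp8, the collagenase of neutrophil granules, had 1 count in the Normal rats and 398 in the IC rats, a CPM ratio of 322 (95% exact interval 57.4 to 12700, for counting error only, adjusted p = 8.19e-04). The 7 genes under the filter include the granule genes Mpo, Camp, Ngp and Ltf, made in marrow, which define the lineage. The call of S100a8 was lost without Normal replicate 1 (adjusted p = 0.096). The calls of S100a8 and S100a9 were lost without Normal replicate 3 (adjusted p = 0.0523 to 0.132).

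Most T and NK cell genes lay above Normal, but few were called. Cd8a and Cd8b, the chains of the CD8 coreceptor, rose: Cd8a stood at 0.0937 and 0.192 TPM in the Normal rats and 38.8, 128 and 80.6 TPM in the IC rats (3 counts against 2385, a CPM ratio of 642 with a 95% exact interval of 219 to 3120 for counting error, adjusted p = 5.85e-04), and Cd8b was at 0 counts in both Normal rats and at 4.86, 11.3 and 10.6 TPM in the IC rats, at least 52.3-fold higher against a floor of 3 counts per library (adjusted p = 0.00181). Of the T cell receptor complex, Cd3e and Cd3g averaged under 1 TPM in both groups. Cd3e averaged 0.492 TPM in the Normal and 0.559 TPM in the IC rats, a log2 fold change of 0.13 (adjusted p = 0.918), and Cd3g 0.254 and 0.977 TPM (log2 fold change 1.77, adjusted p = 0.298). Cd3e and Cd3g were picked out after their values were seen, for the contrast with Cd8a. The other listed members of the complex, Cd3d and Cd247, are not given here. In rats CD8 is also carried by natural killer cells and by activated monocytes and macrophages. Which cells carried Cd8a and Cd8b here was not tested. Over the T and NK list 3 of 11 tested genes rose, and the median log2 fold change was 2.24, with 10 members above 0 and 1 below. The third that rose was Cd5 (log2 fold change 2.98, adjusted p = 0.0486), which holds 3 counts in the Normal rats. Cd2 averaged 0.346 TPM in the Normal and 1.76 TPM in the IC rats and was not called (log2 fold change 2.24, adjusted p = 0.132). None of the 6 B cell genes passed the filter on counts. The call of Cd5 was lost without IC replicate 2, IC replicate 3, IC replicate 4 or Normal replicate 3 (adjusted p = 0.0867 to 0.308).

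Erythroid genes did not separate the groups. Hbb, a beta globin, stood at 46 and 40.6 TPM in the Normal rats and 32.4, 37.8 and 129 TPM in the IC rats (log2 fold change 0.61, adjusted p = 0.489), and Hba-a3, an alpha globin, at 10.2 and 12.1 TPM in the Normal rats and 5.88, 7.5 and 30.6 TPM in the IC rats (log2 fold change 0.37, adjusted p = 0.76). IC replicate 4 alone was high, and globin genes took 0.0895% of its counts against 0.018% to 0.0273% in the other 4 rats. Alas2, which makes heme in red cell precursors, was at 1.49 TPM on average in the Normal and 1.83 TPM in the IC rats. The globin genes are near copies of each other, and how reads were shared among them is uncertain.

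Of the heme clearance genes, 2 rose. Hmox1, the inducible heme oxygenase, stood at 9.34 and 5.76 TPM in the Normal rats and 719, 1420 and 941 TPM in the IC rats (log2 fold change 7.01, SE 0.54, adjusted p = 1.15e-04), so the groups were far apart and no rat lay between them. Hmox2, the constitutive form, differed by a log2 fold change of -0.33 (adjusted p = 0.229). Cd163, the macrophage receptor for hemoglobin bound to haptoglobin, stood at 0.599 and 0.751 TPM in the Normal rats and 1.83, 4.65 and 4.21 TPM in the IC rats (log2 fold change 2.35, SE 0.70, adjusted p = 0.0411). Over the 14 genes of the list, Hmox1 and Cd163 were the 2 that rose, a share of 14.3% against 10.9% of all tested genes. The median was 0.51, and 0 fell. The heme transporter gene Slc48a1 was high throughout, at 303 and 310 TPM in the Normal rats and 371, 476 and 390 TPM in the IC rats (log2 fold change 0.37, adjusted p = 0.236), and Lrp1, the receptor of heme bound to hemopexin, at 86 and 103 TPM in the Normal rats and 101, 112 and 84.8 TPM in the IC rats (log2 fold change 0.01, adjusted p = 0.976). Hpx, which encodes hemopexin itself, averaged 0.253 TPM in the Normal and 0.626 TPM in the IC rats (log2 fold change 1.17, adjusted p = 0.229). The call of Cd163 was lost without IC replicate 3, IC replicate 4, Normal replicate 1 or Normal replicate 3 (adjusted p = 0.103 to 0.219). Hmox2 and Hpx were named after their values were seen.

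Among genes of iron storage and transport, 7 of the 18 tested members rose and 0 fell (median log2 fold change 0.85). The iron storage and transport genes that rose numbered 4 without Normal replicate 1 or Normal replicate 3. Ftl1, the ferritin light chain, stood at 251 and 196 TPM in the Normal rats and 900, 1740 and 1310 TPM in the IC rats (log2 fold change 2.49, SE 0.57, adjusted p = 0.0126). Fth1, the ferritin heavy chain, was the most abundant gene of the list, at 4680 and 2820 TPM in the Normal rats and 7420, 12000 and 13100 TPM in the IC rats, and missed the call (log2 fold change 1.47, adjusted p = 0.0623), although the 3 IC rats were above both Normal rats. Both ferritins have many processed copies in the rat genome, so their counts are uncertain. Slc11a1, the iron exporter of the phagosome, stood at 3.07 and 2.04 TPM in the Normal rats and 52.2, 84.1 and 56.7 TPM in the IC rats (log2 fold change 4.58, SE 0.45, adjusted p = 1.36e-04), and Cp, the ferroxidase ceruloplasmin, at 3.86 and 4.94 TPM in the Normal rats and 26.8, 46.4 and 30.1 TPM in the IC rats (log2 fold change 2.91, SE 0.34, adjusted p = 3.07e-04). Lcn2, lipocalin-2, which binds iron-loaded siderophores and is made by reactive astrocytes and neutrophils, stood at 1.38 and 1.88 TPM in the Normal rats and 187, 386 and 274 TPM in the IC rats (log2 fold change 7.37, SE 0.49, adjusted p = 4.48e-05). Tfrc, the transferrin receptor, averaged 66.2 TPM in the Normal and 70.6 TPM in the IC rats (log2 fold change 0.04, adjusted p = 0.939), and Slc40a1, the iron exporter ferroportin, 3.18 and 5.92 TPM (log2 fold change 0.83, adjusted p = 0.05). Tfrc and Slc40a1 were picked after their values were seen. The call of Ftl1 was lost without Normal replicate 1 or Normal replicate 3 (adjusted p = 0.0659 to 0.145).

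Some genes of the Nrf2 and glutathione list rose, with 14 members above 0 and 8 below, and the activity of Nrf2 was not measured. 7 of the 22 tested members rose and 0 fell (median log2 fold change 0.29), and the count was 0 to 7 when 1 rat was left out. The Nrf2 and glutathione genes that rose numbered 0 without Normal replicate 3, 3 without Normal replicate 1 and 4 without IC replicate 3. Gpx1, which reduces hydrogen peroxide with glutathione, stood at 179 and 126 TPM in the Normal rats and 525, 915 and 737 TPM in the IC rats (log2 fold change 2.18, SE 0.59, adjusted p = 0.0285). Prdx1, a peroxiredoxin, stood at 165 and 159 TPM in the Normal rats and 390, 524 and 368 TPM in the IC rats (log2 fold change 1.33, SE 0.29, adjusted p = 0.0093), and Maff, a small partner of Nrf2, at 1.68 and 0.376 TPM in the Normal rats and 6.01, 11 and 7.1 TPM in the IC rats (log2 fold change 2.87, SE 0.57, adjusted p = 0.00623). The glutathione peroxidase of lipids, Gpx4, differed by a log2 fold change of 0.28 (adjusted p = 0.645), and Sqstm1, a cargo receptor of autophagy that binds Keap1, by a log2 fold change of -0.04 (adjusted p = 0.898). Slc7a11, the cystine importer, averaged 15.6 TPM in the Normal and 12.6 TPM in the IC rats (log2 fold change -0.35, adjusted p = 0.668, named after its value was seen). Of the genes of metallothioneins, which bind zinc and copper, and of zinc transport, 3 of the 11 tested members rose and 0 fell (median log2 fold change 0.04). That is a share of 27.3%, against 10.9% of all tested genes, and 6 members lay above 0 and 5 below. Mt2A stood at 143 and 97.6 TPM in the Normal rats and 1400, 2100 and 1630 TPM in the IC rats (log2 fold change 3.76, SE 0.52, adjusted p = 7.85e-04) and Mt1 at 76.7 and 53.2 TPM in the Normal rats and 358, 527 and 372 TPM in the IC rats (log2 fold change 2.62, SE 0.49, adjusted p = 0.00425), and the third member that rose was the zinc importer gene Slc39a1 (log2 fold change 1.79, adjusted p = 1.47e-04). Mt3, the neuronal and astrocytic form, stood at 760 and 574 TPM in the Normal rats and 1350, 1290 and 1860 TPM in the IC rats (log2 fold change 1.12, adjusted p = 0.224) and was not called. The call of Gpx1 was lost without IC replicate 3 or IC replicate 4 (adjusted p = 0.0698 to 0.0859). The calls of Gpx1 and Prdx1 were lost without Normal replicate 1 (adjusted p = 0.0573 to 0.0911). The calls of Gpx1, Prdx1, Maff and Mt1 were lost without Normal replicate 3 (adjusted p = 0.0521 to 0.235).

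**Figure D3:**
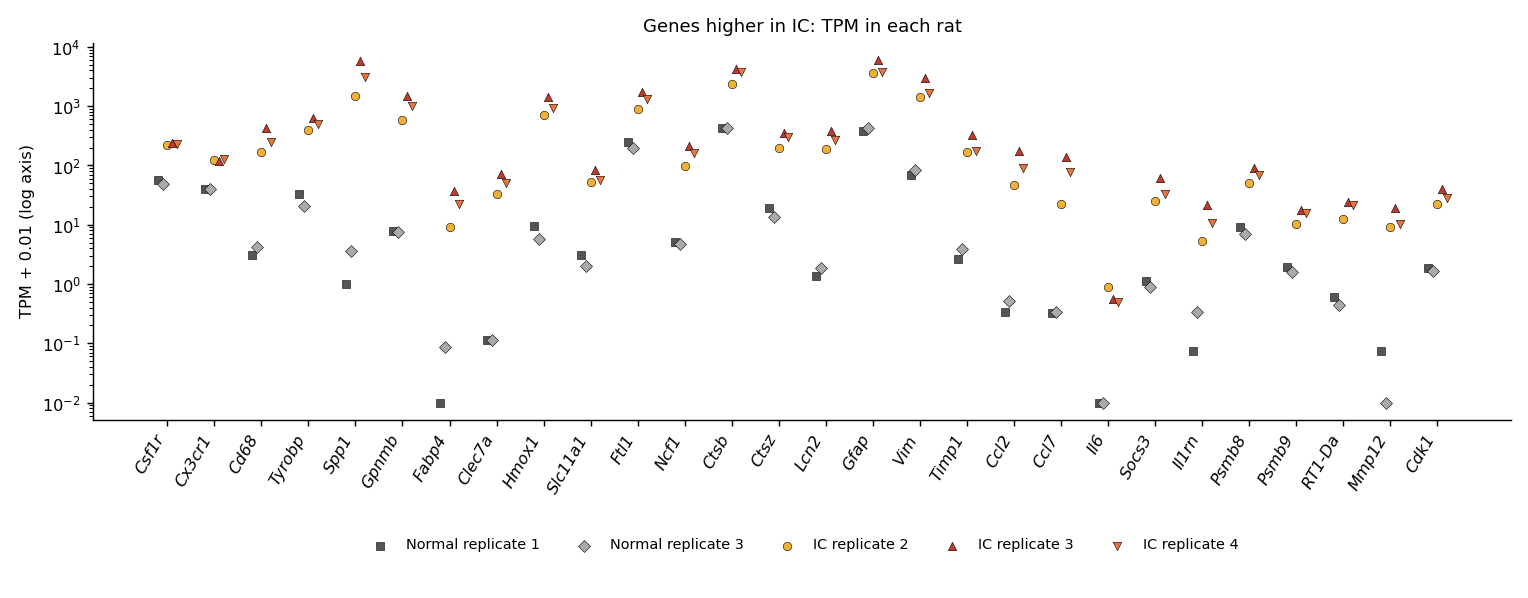
TPM plus 0.01 of 28 genes in each of the 5 rats, on a log axis, with a symbol per rat. The IC rats lie above both Normal rats in each gene shown, and IC replicate 3 is the highest of them in most, as for Spp1 at 5700 TPM against 1510 and 3070 TPM.

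The enzyme complex that phagocytes use to make superoxide rose as a whole: 7 of 7 tested genes of the NADPH oxidase rose (median log2 fold change 4.25), and 5 to 7 did so when 1 rat was left out. Ncf1, the organizer subunit p47phox, stood at 5.01 and 4.76 TPM in the Normal rats and 96.1, 213 and 164 TPM in the IC rats (log2 fold change 4.95, SE 0.75, adjusted p = 0.00131). Ncf4, the subunit p40phox, rose by a log2 fold change of 4.70 (adjusted p = 6.33e-04). Cyba, the membrane subunit p22phox, stood at 13.3 and 8.86 TPM in the Normal rats and 116, 235 and 213 TPM in the IC rats (log2 fold change 4.02, SE 0.79, adjusted p = 0.00581). Ncf1 has close copies in some mammalian genomes, and its counts may be shared with one. The call of Cyba was lost without Normal replicate 3 (adjusted p = 0.0882).

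Lysosomal genes were abundant in both groups. Of the list, 19 of the 24 tested members rose and 0 fell (median log2 fold change 1.81), with 9 to 19 when 1 rat was left out. The lysosomal genes that rose numbered 9 without Normal replicate 3 and 11 without Normal replicate 1. Ctsb, a cysteine protease, stood at 432 and 434 TPM in the Normal rats and 2380, 4170 and 3720 TPM in the IC rats (log2 fold change 2.93, SE 0.46, adjusted p = 0.00155), and Ctsd, an aspartic protease, at 261 and 234 TPM in the Normal rats and 1770, 3450 and 2920 TPM in the IC rats (log2 fold change 3.40, SE 0.61, adjusted p = 0.00342). Both were among the largest gains in transcript share of all genes. Ctsz and Ctsc rose more steeply, by a log2 fold change of 4.05 (adjusted p = 0.00126) and a log2 fold change of 3.88 (adjusted p = 2.91e-04). Psap, the precursor of the saposins that help break down sphingolipids, stood at 1320 and 1380 TPM in the Normal rats and 2700, 3470 and 3240 TPM in the IC rats (log2 fold change 1.16, SE 0.32, adjusted p = 0.031). Lamp1, a membrane glycoprotein of all lysosomes, differed by a log2 fold change of 0.55 (adjusted p = 0.187). The call of Psap was lost without IC replicate 3, IC replicate 4 or Normal replicate 1 (adjusted p = 0.087 to 0.126). The calls of Ctsd and Psap were lost without Normal replicate 3 (adjusted p = 0.0596 to 0.212).

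Spp1, which encodes the matrix protein and cytokine osteopontin, stood at 0.998 and 3.57 TPM in the Normal rats and 1510, 5700 and 3070 TPM in the IC rats (log2 fold change 10.50, SE 1.01, adjusted p = 1.26e-04). Gpnmb, a glycoprotein of lysosomes in phagocytes, stood at 7.93 and 7.53 TPM in the Normal rats and 586, 1470 and 1000 TPM in the IC rats (log2 fold change 6.98, SE 0.57, adjusted p = 1.15e-04). Over the list, 17 of the 22 tested members rose and 0 fell (median log2 fold change 2.56). Fabp4, a carrier of fatty acids, had 1 count in the Normal rats against 831 in the IC rats, a CPM ratio of 671 (95% exact interval 120.0 to 26500, adjusted p = 7.76e-04). Clec7a, the beta-glucan receptor dectin-1, stood at 0.103 and 0.105 TPM in the Normal rats and 32.5, 70.4 and 50.9 TPM in the IC rats (log2 fold change 8.78, SE 0.79, adjusted p = 1.15e-04). Lgals3, galectin-3, averaged 2.56 TPM in the Normal and 382 TPM in the IC rats (log2 fold change 7.15), and Trem2, a lipid receptor of microglia, 10.3 and 158 TPM (log2 fold change 3.87). Apoe, the main lipoprotein of the brain, stood at 3090 and 2130 TPM in the Normal rats and 5010, 8080 and 8770 TPM in the IC rats and missed the call (log2 fold change 1.42, adjusted p = 0.159), and Abcg1, a cholesterol exporter, differed by a log2 fold change of -0.03 (adjusted p = 0.939). Lgals3 and Trem2 were named after their values were seen. Every one of the called genes of this list was higher in all 3 IC rats than in both Normal rats, as were all genes called higher. The call itself favors such genes, so this is no separate support and is not particular to the list.

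Of the receptors for the uptake of particles and dying cells, 11 of the 19 tested members rose and 0 fell (median log2 fold change 1.67). Msr1, scavenger receptor A, stood at 0.333 and 0.341 TPM in the Normal rats and 13.4, 26.9 and 20.5 TPM in the IC rats (log2 fold change 5.81, SE 0.51, adjusted p = 1.15e-04), Olr1, a receptor of oxidized LDL, at 0.416 and 0.461 TPM in the Normal rats and 7.29, 20 and 7.85 TPM in the IC rats (log2 fold change 4.65, SE 0.54, adjusted p = 3.18e-04), and Fcgr3a, an activating receptor of IgG, at 2.65 and 2.62 TPM in the Normal rats and 82.6, 123 and 105 TPM in the IC rats (log2 fold change 5.23, SE 0.45, adjusted p = 1.15e-04). Among the kinases that recognize dying cells, Axl rose by a log2 fold change of 1.59 (adjusted p = 0.00115) and Tyro3, which neurons express, differed by a log2 fold change of -0.65 (adjusted p = 0.0591). Cd36, which takes up lipids and red cell debris, had 1 count in the Normal and 94 in the IC rats, at 0.0199 and 0 TPM in the Normal rats and 0.094, 1.07 and 0.968 TPM in the IC rats, and missed the call (log2 fold change 5.70, adjusted p = 0.0755). IC replicate 3 was the highest rat in each of Msr1, Olr1, Fcgr3a and Cd36. The Fc receptor genes are near copies, so reads may be split among them.

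Genes of antigen presentation rose, and those of the constitutive proteasome did not pass the test. Of the genes of the immunoproteasome and MHC class I, 8 of the 12 tested members rose and 0 fell (median log2 fold change 1.63), with 2 to 8 when 1 rat was left out. The immunoproteasome and MHC class I genes that rose numbered 2 without Normal replicate 3. Psmb8, which encodes LMP7, stood at 9.18 and 6.85 TPM in the Normal rats and 51.5, 91.9 and 67.8 TPM in the IC rats (log2 fold change 3.06, SE 0.51, adjusted p = 0.00223). Psmb9, which encodes LMP2, stood at 1.93 and 1.56 TPM in the Normal rats and 10.3, 18 and 15.6 TPM in the IC rats (log2 fold change 3.0, SE 0.53, adjusted p = 0.00327). The IC rats were above both Normal rats in each, and Psmb8 was the more abundant transcript per length in every rat. Psme1, a subunit of the PA28 activator, stood at 42.3 and 35.7 TPM in the Normal rats and 154, 208 and 168 TPM in the IC rats (log2 fold change 2.11, SE 0.40, adjusted p = 0.0046), and B2m, the light chain of class I molecules, at 238 and 197 TPM in the Normal rats and 635, 931 and 774 TPM in the IC rats (log2 fold change 1.78, SE 0.34, adjusted p = 0.00468). Nlrc5, the transactivator of class I genes, rose by a log2 fold change of 2.48 (adjusted p = 0.00557). The chaperones Calr and Pdia3, which load class I molecules and also fold other proteins, differed by a log2 fold change of 0.60 (adjusted p = 0.132) and a log2 fold change of 0.78 (adjusted p = 0.0262). Psmb10, the third inducible subunit, was not analysed here. The calls of Psmb9, Psme1, B2m and Nlrc5 were lost without Normal replicate 3 (adjusted p = 0.0579 to 0.0813).

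None of the 31 genes of the constitutive proteasome was called in either direction by edgeR, and the median log2 fold change was 0.13, with values from -0.46 to 0.67. At an unadjusted p under 0.05 there were 2, and DESeq2 called 0. Psmb6, the subunit that LMP2 replaces, stood at 177 and 154 TPM in the Normal rats and 224, 223 and 192 TPM in the IC rats (log2 fold change 0.30, adjusted p = 0.582). Psmb4, a structural subunit, had the highest value, at 181 and 155 TPM in the Normal rats and 268, 289 and 279 TPM in the IC rats (log2 fold change 0.67, adjusted p = 0.237). In mean list level the IC rats lay 0.126 to 0.222 above the Normal mean in log2 CPM, and the Normal rats 0.046 above and below it.

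Of the genes of MHC class II, which professional presenting cells carry, 9 of the 12 tested members rose and 0 fell (median log2 fold change 3.62). The MHC class II genes that rose numbered 4 without Normal replicate 3. RT1-Da, a class II chain, stood at 0.597 and 0.441 TPM in the Normal rats and 12.3, 23.8 and 21.6 TPM in the IC rats (log2 fold change 5.14, SE 0.61, adjusted p = 3.36e-04). Ifi30, the lysosomal reductase of antigen processing, stood at 6.95 and 7.42 TPM in the Normal rats and 96.3, 231 and 166 TPM in the IC rats (log2 fold change 4.46, SE 0.68, adjusted p = 0.00129). Ciita, the master regulator of class II genes, had 2 counts in the Normal and 121 in the IC rats, a CPM ratio of 48.9 (95% exact interval 13.2 to 408, adjusted p = 0.00216). RT1-Ba and RT1-DOa, further class II chains, stood at 1.32 and 1.64 TPM in the Normal rats and 5.89, 7.79 and 10.9 TPM in the IC rats (log2 fold change 2.41, adjusted p = 0.155) and at 0 and 0.228 TPM in the Normal rats and 1.18, 2.59 and 1.35 TPM in the IC rats (adjusted p = 0.0591, with 2 counts in the Normal and 42 in the IC rats) and were not called. The RT1 genes are polymorphic near copies, so their counts are uncertain.

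The promoters of several called genes are shown, from the interferon, antigen presentation, phagocyte and antioxidant lists. They were picked by hand, and each holds the motif marked in it. Each window runs from 170 bases before to 30 bases from the start of the gene in RefSeq on build GRCr8, in the direction of transcription, and capitals mark a motif found by letter match on either strand. In Psmb8, B2m and Bst2 the capitals mark the interferon-stimulated response element, which interferon-activated factors bind. In Ctss and Fcgr3a they mark that element and the motif GAGGAAGT of PU.1, a factor of myeloid cells, and in Prdx1 the antioxidant response element TGACNNNGC, which Nrf2 binds. Only these motifs are marked in each window, and matches to the other motifs searched are left in lower case. Other genes that rose lacked them. No interferon-stimulated response element was found in the promoters of Psmb9 and Mx1, and no antioxidant response element in those of Gpx1 and Maff. The windows lie at chr20:4657002-4657201, minus strand for Psmb8, at chr3:129549160-129549359, plus strand for B2m, at chr16:18254938-18255137, minus strand for Bst2, at chr2:185775226-185775425, plus strand for Ctss, at chr13:85782466-85782665, plus strand for Fcgr3a and at chr5:135383736-135383935, plus strand for Prdx1.
Psmb8: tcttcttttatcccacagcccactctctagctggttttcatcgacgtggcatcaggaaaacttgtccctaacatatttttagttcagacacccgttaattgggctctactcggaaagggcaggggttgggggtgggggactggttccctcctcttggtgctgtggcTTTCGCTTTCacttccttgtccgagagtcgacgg
B2m: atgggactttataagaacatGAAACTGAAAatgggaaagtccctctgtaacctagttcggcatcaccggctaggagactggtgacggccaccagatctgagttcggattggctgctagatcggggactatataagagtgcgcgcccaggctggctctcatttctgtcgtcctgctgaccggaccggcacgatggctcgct
Bst2: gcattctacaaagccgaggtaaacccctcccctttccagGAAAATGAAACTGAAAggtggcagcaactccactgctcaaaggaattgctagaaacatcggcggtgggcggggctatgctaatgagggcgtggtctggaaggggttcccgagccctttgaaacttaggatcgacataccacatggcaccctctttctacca
Ctss: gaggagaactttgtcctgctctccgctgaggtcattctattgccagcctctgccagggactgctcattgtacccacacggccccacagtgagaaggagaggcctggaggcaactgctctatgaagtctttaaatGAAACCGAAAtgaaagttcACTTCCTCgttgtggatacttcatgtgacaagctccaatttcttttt
Fcgr3a: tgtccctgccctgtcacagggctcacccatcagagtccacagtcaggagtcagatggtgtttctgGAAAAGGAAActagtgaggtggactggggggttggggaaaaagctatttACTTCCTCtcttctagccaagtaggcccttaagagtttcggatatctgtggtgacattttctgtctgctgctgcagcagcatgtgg
Prdx1: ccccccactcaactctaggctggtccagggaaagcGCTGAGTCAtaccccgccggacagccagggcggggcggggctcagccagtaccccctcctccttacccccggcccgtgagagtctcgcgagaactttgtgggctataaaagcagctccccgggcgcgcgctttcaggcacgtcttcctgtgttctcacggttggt

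Over windows of 300 bases, from 250 before to 50 after the start, 11797 of the 15742 tested genes had a RefSeq promoter. The interferon-stimulated response element stood in 2.93% of all these promoters, in 6.12% of those of genes called higher and in 2.19% of those of genes called lower. It was present in 11 of 16 promoters of the interferon list and in 5 of 9 of the immunoproteasome and MHC class I list. The PU.1 motif stood in 2.66% of all, 5.43% of higher and 1.88% of lower promoters. The antioxidant response element was common throughout, in 14.5% of all, 16.1% of higher and 13.1% of lower promoters. It was present in 4 of 19 promoters (21.1%) of the Nrf2 and glutathione list. The cAMP response element, TGACGTCA, was found in 3.03% of all, 1.91% of higher and 4.38% of lower promoters. A motif of NF-kB, matched loosely, was in 64.8%, 65.4% and 64.1%. The median GC content was 60.3% in all, 58.0% in higher and 63.7% in lower promoters, and these shares are descriptions with no test and no account of base composition.

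Of the interferon-stimulated genes, 17 of the 23 tested members rose and 0 fell (median log2 fold change 1.99). The interferon response genes that rose numbered 6 without Normal replicate 1, 7 without Normal replicate 3 and 10 without IC replicate 3. Bst2, the membrane protein tetherin, stood at 9.37 and 6.23 TPM in the Normal rats and 46.8, 88.3 and 78.3 TPM in the IC rats (log2 fold change 3.12, SE 0.64, adjusted p = 0.00692). Ifitm3, which blocks viral entry, stood at 29.8 and 29 TPM in the Normal rats and 114, 197 and 119 TPM in the IC rats (log2 fold change 2.22, SE 0.34, adjusted p = 0.00129), and Mx1, an antiviral GTPase, at 0.607 and 4.07 TPM in the Normal rats and 14.6, 45.1 and 11.9 TPM in the IC rats (log2 fold change 3.30, SE 0.93, adjusted p = 0.0341). Oas2, a sensor enzyme of double-stranded RNA, had 3 counts in the Normal and 103 in the IC rats, a CPM ratio of 27.7 (95% exact interval 9.23 to 137, adjusted p = 0.00896). Stat2, a signal transducer of type I interferon, stood at 18 and 22.8 TPM in the Normal rats and 30.7, 49 and 30.4 TPM in the IC rats (log2 fold change 0.79, adjusted p = 0.0366), and Ifit2 differed by a log2 fold change of 1.12 (adjusted p = 0.0829). The call of Mx1 was lost without IC replicate 3 (adjusted p = 0.116). The calls of Mx1 and Oas2 were lost without Normal replicate 1 (adjusted p = 0.0725 to 0.163). The calls of Bst2 and Mx1 were lost without Normal replicate 3 (adjusted p = 0.0524 to 0.102).

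Every tested gene of the Toll-like receptors and their adaptors rose, 17 of 17 (median 2.53 in log2 fold change), and the count was 11 to 16 when 1 rat was left out. The Toll-like receptor genes that rose numbered 11 without Normal replicate 3. Cd14, the co-receptor for lipopolysaccharide, stood at 0.924 and 0.726 TPM in the Normal rats and 29.6, 62.5 and 31.8 TPM in the IC rats (log2 fold change 5.55, SE 0.46, adjusted p = 1.15e-04). Tlr8, an endosomal receptor of RNA, stood at 0.0991 and 0.177 TPM in the Normal rats and 5.44, 12.6 and 8.57 TPM in the IC rats (log2 fold change 5.92, SE 0.63, adjusted p = 2.16e-04), and Tlr1, a partner of Tlr2, at 0.256 and 0.327 TPM in the Normal rats and 2.68, 4.64 and 3.01 TPM in the IC rats (log2 fold change 3.48, SE 0.39, adjusted p = 2.37e-04). Myd88, the shared adaptor, stood at 5.99 and 5.36 TPM in the Normal rats and 20.1, 25.9 and 22.3 TPM in the IC rats (log2 fold change 1.94, SE 0.28, adjusted p = 0.001). The IC rats were above both Normal rats in these 4 genes.

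Most complement genes rose. 18 of the 21 tested members rose and 0 fell (median log2 fold change 2.83). With the 1 member at 0 counts in the Normal rats set at its bound, the median was 2.46. C1qb, a chain of the recognition molecule of the classical pathway, stood at 86.8 and 49.8 TPM in the Normal rats and 633, 770 and 924 TPM in the IC rats (log2 fold change 3.44, SE 0.45, adjusted p = 6.04e-04), and C1qa at 71.9 and 38.9 TPM in the Normal rats and 358, 410 and 518 TPM in the IC rats (log2 fold change 2.89, SE 0.45, adjusted p = 0.00141). C6, a component of the terminal complex, stood at 0.0864 and 0.0884 TPM in the Normal rats and 0.714, 1.77 and 1.12 TPM in the IC rats (log2 fold change 3.62, SE 1.02, adjusted p = 0.0329). Serping1, the inhibitor of C1, stood at 12.8 and 14.8 TPM in the Normal rats and 181, 186 and 206 TPM in the IC rats (log2 fold change 3.75, SE 0.24, adjusted p = 4.48e-05). The membrane inhibitors Cd55 and Cd59b differed by a log2 fold change of -0.25 (adjusted p = 0.638) and a log2 fold change of 0.40 (adjusted p = 0.14). The call of C6 was lost without IC replicate 3, IC replicate 4, Normal replicate 1 or Normal replicate 3 (adjusted p = 0.067 to 0.213).

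Chemokines attract leukocytes out of the blood. In the CC family, 10 of the 15 tested members rose and 0 fell (median log2 fold change 2.47). The CC chemokine and receptor genes that rose numbered 4 without Normal replicate 3. Ccl2, the main ligand of Ccr2, stood at 0.332 and 0.509 TPM in the Normal rats and 47.6, 177 and 89 TPM in the IC rats (log2 fold change 7.81, SE 0.82, adjusted p = 2.13e-04), and Ccl7, a further ligand, at 0.32 and 0.327 TPM in the Normal rats and 22.4, 138 and 78.6 TPM in the IC rats (log2 fold change 7.78, SE 1.10, adjusted p = 8.57e-04). In the CXC and other families, 9 of the 17 tested members rose and 0 fell (median log2 fold change 3.30), or a median of 2.95 with the 3 members at 0 counts in the Normal rats at their bound. The CXC and other chemokine genes that rose numbered 5 without Normal replicate 3. Pf4, a chemokine of platelets and macrophages, stood at 2.15 and 2.6 TPM in the Normal rats and 106, 308 and 151 TPM in the IC rats (log2 fold change 6.22, SE 1.02, adjusted p = 0.00205). The neutrophil chemokine gene Cxcl2 had 0 counts in the Normal and 63 in the IC rats, at least 9.88-fold higher (adjusted p = 0.036). It stood at 0 and 0 TPM in the Normal rats and 0.43, 2.26 and 7.37 TPM in the IC rats, so most of the level came from IC replicate 4. Cxcl1 had 1 and 102 counts, a CPM ratio of 82.4 (95% exact interval 14.5 to 3290, adjusted p = 0.00261). Cxcl10, a ligand induced by interferon, stood at 0.902 and 1.84 TPM in the Normal rats and 12.2, 12.6 and 8.56 TPM in the IC rats and was not called (log2 fold change 2.95, adjusted p = 0.0694). Cx3cl1, the neuronal ligand of Cx3cr1, differed by a log2 fold change of -0.83 (adjusted p = 0.118). The call of Cxcl2 was lost without IC replicate 3, IC replicate 4, Normal replicate 1 or Normal replicate 3 (adjusted p = 0.0651 to 0.192).

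In the interleukin 1 family and inflammasome, 13 of the 18 tested members rose and 0 fell (median log2 fold change 2.49). The interleukin 1 family and inflammasome genes that rose numbered 8 without Normal replicate 3. Il1b stood at 0.348 and 0.285 TPM in the Normal rats and 2.38, 5.18 and 3.07 TPM in the IC rats (log2 fold change 3.38, SE 0.82, adjusted p = 0.0176). The receptor antagonist Il1rn was steeper, at 0.0631 and 0.323 TPM in the Normal rats and 5.22, 21.6 and 10.6 TPM in the IC rats (log2 fold change 5.90, SE 0.79, adjusted p = 6.75e-04). Pycard, the adaptor of the inflammasome, stood at 5.58 and 4.39 TPM in the Normal rats and 39.7, 53.9 and 46 TPM in the IC rats (log2 fold change 3.15, SE 0.60, adjusted p = 0.00495), and Il33, an alarmin of glial nuclei, at 17.5 and 13 TPM in the Normal rats and 49.6, 66.6 and 43.3 TPM in the IC rats (log2 fold change 1.72, SE 0.25, adjusted p = 9.58e-04). In the IL-6 family and its STAT3 pathway, 10 of the 16 tested members rose and 1 fell (median log2 fold change 1.65). The IL-6 family and STAT3 genes that rose numbered 6 without Normal replicate 3. Socs3, the feedback inhibitor of that pathway, stood at 1.13 and 0.886 TPM in the Normal rats and 25.3, 60.4 and 33.3 TPM in the IC rats (log2 fold change 5.22, SE 0.45, adjusted p = 1.15e-04), and Osm, the macrophage cytokine oncostatin M, at 0.283 and 0.145 TPM in the Normal rats and 2.75, 7.55 and 4.4 TPM in the IC rats (log2 fold change 4.38, SE 0.79, adjusted p = 0.00361). Il6 itself was rare, with 0 counts in the Normal and 31 in the IC rats, at least 4.16-fold higher (adjusted p = 0.00244). Lifr, the receptor of leukemia inhibitory factor, was the gene that fell (log2 fold change -1.84, adjusted p = 0.037). The call of Lifr was lost without IC replicate 2 or IC replicate 4 (adjusted p = 0.0589 to 0.118). The calls of Il1b and Lifr were lost without IC replicate 3 or Normal replicate 1 (adjusted p = 0.0548 to 0.103). The calls of Il1b, Pycard, Osm and Lifr were lost without Normal replicate 3 (adjusted p = 0.0633 to 0.338).

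Of the NF-kB and TNF superfamily genes, 14 of the 23 tested members rose and 0 fell (median log2 fold change 1.58). The NF-kB and TNF superfamily genes that rose numbered 6 without Normal replicate 3. Cd40, a co-stimulatory receptor, stood at 0.821 and 0.336 TPM in the Normal rats and 6.39, 11.1 and 7.23 TPM in the IC rats (log2 fold change 3.73, SE 0.53, adjusted p = 9.26e-04), and Tnfrsf1a, a receptor of TNF, at 17.2 and 18.6 TPM in the Normal rats and 65.9, 116 and 72.9 TPM in the IC rats (log2 fold change 2.18, SE 0.26, adjusted p = 3.21e-04). Nfkbia, the inhibitor that NF-kB induces, rose by a log2 fold change of 1.02 (adjusted p = 0.0306). Rela, the main transactivating subunit, stood at 26.2 and 25.4 TPM in the Normal rats and 30.9, 45.6 and 32.6 TPM in the IC rats (log2 fold change 0.43, adjusted p = 0.192). The call of Nfkbia was lost without IC replicate 3, IC replicate 4 or Normal replicate 3 (adjusted p = 0.0909 to 0.291).

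Genes used as marks of M1 and of alternative activation rose side by side. Of the M1-associated genes, 8 of the 11 tested members rose and 0 fell (median log2 fold change 3.38), or a median of 3.09 with the 1 member at 0 counts in the Normal rats at its bound. Cd86, a co-stimulatory ligand, stood at 1.9 and 1.09 TPM in the Normal rats and 11.9, 14.5 and 13.8 TPM in the IC rats (log2 fold change 3.09, SE 0.39, adjusted p = 4.66e-04), and Fcgr3a, the Fc receptor CD16, at 2.65 and 2.62 TPM in the Normal rats and 82.6, 123 and 105 TPM in the IC rats (log2 fold change 5.23, SE 0.45, adjusted p = 1.15e-04). Ptgs2, cyclooxygenase-2, differed by a log2 fold change of -0.14 (adjusted p = 0.838), and Il23a by a log2 fold change of 0.37 (adjusted p = 0.675). Of the genes of alternative activation and arginine metabolism, 8 of the 12 tested members rose and 0 fell (median log2 fold change 2.30). The alternative activation and arginine metabolism genes that rose numbered 5 without Normal replicate 3. Arg1, arginase-1, stood at 2.07 and 4.59 TPM in the Normal rats and 29.6, 44.8 and 57.9 TPM in the IC rats (log2 fold change 3.70, SE 0.60, adjusted p = 0.00196), and Clec10a, a lectin of tissue macrophages, at 2.71 and 3.03 TPM in the Normal rats and 14.6, 34.3 and 28.6 TPM in the IC rats (log2 fold change 3.12, SE 0.64, adjusted p = 0.0074). Odc1 and Sat1, which make and break down polyamines, rose by a log2 fold change of 1.18 (adjusted p = 0.00105) and a log2 fold change of 1.35 (adjusted p = 0.00494). The mitochondrial arginase gene Arg2 differed by a log2 fold change of -0.50 (adjusted p = 0.357). The difference between the lists was not tested. The call of Clec10a was lost without Normal replicate 1 (adjusted p = 0.066). The calls of Clec10a and Sat1 were lost without Normal replicate 3 (adjusted p = 0.0866 to 0.0885).

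Reactive astrocyte genes rose and homeostatic ones mostly did not pass the test. 15 of the 16 tested members rose and 0 fell (median log2 fold change 3.04), with 11 to 14 when 1 rat was left out. Gfap, the intermediate filament of astrocytes, stood at 377 and 425 TPM in the Normal rats and 3650, 6050 and 3750 TPM in the IC rats (log2 fold change 3.42, SE 0.32, adjusted p = 1.22e-04), the largest gain in TPM among genes called higher. Vim, vimentin, which microglia and vascular cells also carry, stood at 70.1 and 85.2 TPM in the Normal rats and 1430, 2970 and 1670 TPM in the IC rats (log2 fold change 4.64, SE 0.42, adjusted p = 1.15e-04). Timp1, an inhibitor of metalloproteinases, stood at 2.68 and 3.96 TPM in the Normal rats and 166, 331 and 175 TPM in the IC rats (log2 fold change 6.0, SE 0.57, adjusted p = 1.26e-04), and Hspb1, a small heat shock protein, at 12.5 and 4.79 TPM in the Normal rats and 244, 457 and 205 TPM in the IC rats (log2 fold change 5.02, SE 0.68, adjusted p = 7.15e-04). Serpina3n, a secreted protease inhibitor, had 2 counts in the Normal and 1246 in the IC rats, a CPM ratio of 503 (95% exact interval 139 to 4160, adjusted p = 0.0295). It stood at 0.0779 and 0 TPM in the Normal rats and 7.27, 8.51 and 50.5 TPM in the IC rats, so IC replicate 4 carried most of that ratio. Of the homeostatic genes, 0 of the 16 tested members rose and 1 fell (median log2 fold change -0.14). The gene that fell was Slc1a2, the main glutamate transporter, at 142 and 349 TPM in the Normal rats and 87.4, 61.7 and 55.2 TPM in the IC rats (log2 fold change -1.89, SE 0.53, adjusted p = 0.0322). Glul, glutamine synthetase, stood at 877 and 826 TPM in the Normal rats and 1730, 1970 and 1620 TPM in the IC rats and fell just short of the fold cutoff (log2 fold change 0.997, adjusted p = 0.00618), and Aldoc, an aldolase of astrocytes, at 1610 and 1230 TPM in the Normal rats and 1300, 989 and 1320 TPM in the IC rats (log2 fold change -0.30, adjusted p = 0.583). The call of Slc1a2 was lost without IC replicate 3 (adjusted p = 0.117). The calls of Serpina3n and Slc1a2 were lost without IC replicate 4 or Normal replicate 3 (adjusted p = 0.0653 to 0.337). The call of Serpina3n was lost without Normal replicate 1 (adjusted p = 0.127).

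Of the endothelial and barrier genes, 2 of the 18 tested members rose and 0 fell (median log2 fold change 0.19), a share of 11.1% against 10.9% of all tested genes. Those that rose were Tie1, an endothelial receptor, by a log2 fold change of 1.39 (adjusted p = 0.0066), and Vwf, von Willebrand factor, by a log2 fold change of 1.25 (adjusted p = 0.0159). The glucose transporter gene Slc2a1 stood at 173 and 133 TPM in the Normal rats and 164, 228 and 170 TPM in the IC rats (log2 fold change 0.22, adjusted p = 0.446). Of the pericyte and smooth muscle genes, 4 of the 13 tested members rose and 0 fell (median log2 fold change -0.08), a share of 30.8%. The pericyte and vascular smooth muscle genes that rose numbered 2 without IC replicate 3, IC replicate 4 or Normal replicate 3. Tagln, an actin-binding protein of contractile cells, stood at 62.6 and 39.5 TPM in the Normal rats and 414, 710 and 544 TPM in the IC rats (log2 fold change 3.37, SE 0.44, adjusted p = 5.75e-04), and Anpep, the peptidase CD13, which myeloid cells also carry, at 3.28 and 3 TPM in the Normal rats and 29.8, 79.7 and 43.4 TPM in the IC rats (log2 fold change 3.95, SE 0.54, adjusted p = 7.27e-04). Rgs5, a pericyte gene, stood at 81.7 and 102 TPM in the Normal rats and 60.1, 62.5 and 34.3 TPM in the IC rats (log2 fold change -0.88, adjusted p = 0.0971). Of the angiogenesis genes, 6 of the 18 tested members rose and 0 fell (median log2 fold change 0.27). That is a share of 33.3%, against 10.9% of all tested genes, and 13 members lay above 0 and 5 below. The angiogenesis genes that rose numbered 2 without Normal replicate 3. Adm, the vasodilator adrenomedullin, stood at 2.13 and 1.33 TPM in the Normal rats and 17.6, 35.3 and 41.7 TPM in the IC rats (log2 fold change 4.13, SE 0.60, adjusted p = 9.84e-04), and Vegfa at 95.7 and 83.2 TPM in the Normal rats and 62.6, 91.2 and 61.7 TPM in the IC rats (log2 fold change -0.39, adjusted p = 0.285). The calls of Tie1 and Vwf were lost without Normal replicate 3 (adjusted p = 0.106 to 0.189). The log2 fold change of Vwf passed under the threshold without IC replicate 3 (0.94).

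Of the fibroblast genes, 7 of the 11 tested members rose and 0 fell (median log2 fold change 1.59), and of the collagens and scar matrix genes, 19 of the 29 tested members rose and 0 fell (median log2 fold change 1.44). The collagen and scar matrix genes that rose numbered 8 without Normal replicate 3 and 9 without Normal replicate 1. The fibroblast genes that rose numbered 3 without Normal replicate 1 or Normal replicate 3 and 4 without IC replicate 3. Col3a1, a fibrillar collagen, stood at 4.76 and 6.78 TPM in the Normal rats and 27.1, 57.8 and 27.1 TPM in the IC rats (log2 fold change 2.63, SE 0.40, adjusted p = 0.00135), and Postn, periostin, at 0.441 and 0.451 TPM in the Normal rats and 13.8, 23.2 and 7.88 TPM in the IC rats (log2 fold change 4.97, SE 0.44, adjusted p = 1.15e-04). Thbs1, thrombospondin-1, which activates latent TGF-beta, stood at 0.787 and 1.87 TPM in the Normal rats and 19, 72 and 56.9 TPM in the IC rats (log2 fold change 5.18, SE 0.92, adjusted p = 0.00322). Of the metalloproteinases and inhibitors, 8 of the 20 tested members rose and 1 fell (median log2 fold change 1.06). Mmp12, the macrophage elastase, had 1 count in the Normal and 542 in the IC rats, a CPM ratio of 438 (95% exact interval 78.3 to 17300, adjusted p = 1.47e-04). Mmp17, a membrane-anchored form, was the gene that fell (log2 fold change -1.18, adjusted p = 0.0128). In the TGF-beta pathway, 5 of the 22 tested members rose and 0 fell (median log2 fold change 0.23). That is a share of 22.7%, against 10.9% of all tested genes, and 13 members lay above 0 and 9 below. Tgfb1 stood at 9.29 and 8.31 TPM in the Normal rats and 42.3, 79.6 and 57.1 TPM in the IC rats (log2 fold change 2.70, SE 0.32, adjusted p = 3.53e-04). The TGF-beta pathway genes that rose numbered 3 without Normal replicate 3. The call of Mmp17 was lost without IC replicate 3 or Normal replicate 3 (adjusted p = 0.0597 to 0.13).

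Of the adhesion genes, 9 of the 16 tested members rose and 0 fell (median log2 fold change 2.13). Selp, P-selectin, which tethers leukocytes and platelets, stood at 0 and 0.157 TPM in the Normal rats and 3.12, 4.56 and 2.15 TPM in the IC rats (log2 fold change 5.24, SE 0.76, adjusted p = 9.72e-04), and Itgal, an integrin chain of leukocytes, at 0.593 and 0.78 TPM in the Normal rats and 15.6, 22 and 15.5 TPM in the IC rats (log2 fold change 4.62, SE 0.39, adjusted p = 1.15e-04). Of the coagulation and plasminogen genes, 14 of the 17 tested members rose and 0 fell (median log2 fold change 1.93). The coagulation and plasminogen activation genes that rose numbered 9 without Normal replicate 3. Plau, urokinase, stood at 0.445 and 0.379 TPM in the Normal rats and 20.6, 63 and 26.9 TPM in the IC rats (log2 fold change 6.38, SE 0.60, adjusted p = 1.22e-04). Plat, the tissue plasminogen activator, stood at 62.6 and 36.3 TPM in the Normal rats and 58.8, 84.2 and 52.6 TPM in the IC rats (log2 fold change 0.32, adjusted p = 0.477). Of the annexin and S100 genes, 11 of the 18 tested members rose and 0 fell (median log2 fold change 2.27). The annexin and S100 genes that rose numbered 6 without Normal replicate 3. S100a11 stood at 9.64 and 4.67 TPM in the Normal rats and 240, 481 and 451 TPM in the IC rats (log2 fold change 5.70, SE 0.74, adjusted p = 5.75e-04), and S100b, the astrocyte form, at 1820 and 1580 TPM in the Normal rats and 1680, 1370 and 1480 TPM in the IC rats (log2 fold change -0.23, adjusted p = 0.633).

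Cell cycle genes rose: 27 of the 32 tested members rose and 0 fell (median log2 fold change 2.58), and the count was 22 to 27 when 1 rat was left out. Rrm2, a subunit of the enzyme that makes deoxynucleotides, stood at 0.708 and 1.6 TPM in the Normal rats and 21.5, 34.7 and 20.9 TPM in the IC rats (log2 fold change 4.42, SE 0.45, adjusted p = 1.67e-04). Cdk1, the mitotic kinase, stood at 1.82 and 1.67 TPM in the Normal rats and 22.1, 39.8 and 28 TPM in the IC rats (log2 fold change 4.03, SE 0.40, adjusted p = 1.66e-04), and Ccnb2, its cyclin, at 0.613 and 0.766 TPM in the Normal rats and 11.2, 14.1 and 9.73 TPM in the IC rats (log2 fold change 4.0, SE 0.35, adjusted p = 1.15e-04). Mcm7 and Tyms, of DNA replication, differed by a log2 fold change of 0.79 (adjusted p = 0.037) and a log2 fold change of 0.77 (adjusted p = 0.0338). Of the genes of Myc and ribosome biogenesis, 2 of the 17 tested members rose and 0 fell (median log2 fold change 0.27), and these were Myc (log2 fold change 2.14, adjusted p = 0.0014) and Npm1 (log2 fold change 1.09, adjusted p = 0.0031). Their share of 11.8% was close to the 10.9% of all tested genes. Of the ribosomal proteins, 4 of the 32 tested members rose and 0 fell (median log2 fold change 1.01), while 17 rose when only the IC and Normal rats were fitted and 15 with library size alone. The 4 made up 12.5% of the list, against 10.9% of all tested genes. All 32 tested members had a log2 fold change above 0, from 0.63 to 1.64, while 49.8% of all tested genes lay below 0. The ribosomal protein genes that rose numbered 0 without IC replicate 4, Normal replicate 1 or Normal replicate 3, 1 without IC replicate 3 and 17 without IS-HA replicate 2. Rplp0 stood at 631 and 466 TPM in the Normal rats and 1490, 1860 and 2000 TPM in the IC rats (log2 fold change 1.64, SE 0.42, adjusted p = 0.0216). The Normal rats lay 0.282 above and below their mean in log2 CPM over that list, and ribosomal protein genes have many processed copies. The call of Rplp0 was lost without IC replicate 3, IC replicate 4, Normal replicate 1 or Normal replicate 3 (adjusted p = 0.0565 to 0.212).

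Of the p53 and apoptosis genes, 6 of the 21 tested members rose and 0 fell (median log2 fold change 0.82), with Bcl2a1, a survival factor of myeloid cells, at 5.96 and 2.47 TPM in the Normal rats and 55.1, 145 and 102 TPM in the IC rats (log2 fold change 4.50, SE 0.88, adjusted p = 0.00565) and Fas, the death receptor, at 1.11 and 0.616 TPM in the Normal rats and 4.51, 5.79 and 3.59 TPM in the IC rats (log2 fold change 2.34, SE 0.36, adjusted p = 0.00143). The p53 and apoptosis genes that rose numbered 3 without Normal replicate 3. Of the unfolded protein and integrated stress genes, 2 of the 21 tested members rose and 0 fell (median log2 fold change 0.26), a share of 9.52% against 10.9% of all tested genes. Hspa5, the endoplasmic reticulum chaperone BiP, stood at 242 and 229 TPM in the Normal rats and 281, 420 and 274 TPM in the IC rats (log2 fold change 0.40, adjusted p = 0.208), and Ddit3, the factor CHOP, at 44.5 and 33.6 TPM in the Normal rats and 45.5, 47.5 and 51.3 TPM in the IC rats (log2 fold change 0.24, adjusted p = 0.693). Trib3, a target of CHOP, had 2 counts in the Normal and 52 in the IC rats, a CPM ratio of 21 (95% exact interval 5.53 to 178, adjusted p = 0.00736). Of the heat shock genes, 4 of the 14 tested members rose and 0 fell (median log2 fold change 0.0). That is a share of 28.6%, against 10.9% of all tested genes, and 7 members lay above 0 and 7 below. Hspa8, the constitutive chaperone, stood at 950 and 1120 TPM in the Normal rats and 1080, 1180 and 955 TPM in the IC rats (adjusted p = 0.992). The heat shock genes that rose numbered 1 without Normal replicate 3. Of the hypoxia and glycolysis genes, 3 of the 28 tested members rose and 0 fell (median log2 fold change 0.02), a share of 10.7%, close to that of all genes. Those that rose were Hk3, a hexokinase of myeloid cells, with 2 counts in the Normal and 1922 in the IC rats, a CPM ratio of 776 (95% exact interval 215 to 6420, adjusted p = 1.15e-04), Hk2 (log2 fold change 2.27, adjusted p = 0.00106) and the lactate exporter Slc16a3 (log2 fold change 3.48, adjusted p = 0.00765). Gapdh stood at 864 and 909 TPM in the Normal rats and 847, 954 and 990 TPM in the IC rats (log2 fold change 0.02, adjusted p = 0.952). The call of Trib3 was lost without Normal replicate 1 (adjusted p = 0.0608). The calls of Bcl2a1 and Slc16a3 were lost without Normal replicate 3 (adjusted p = 0.0856 to 0.108).

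**Figure D4:**
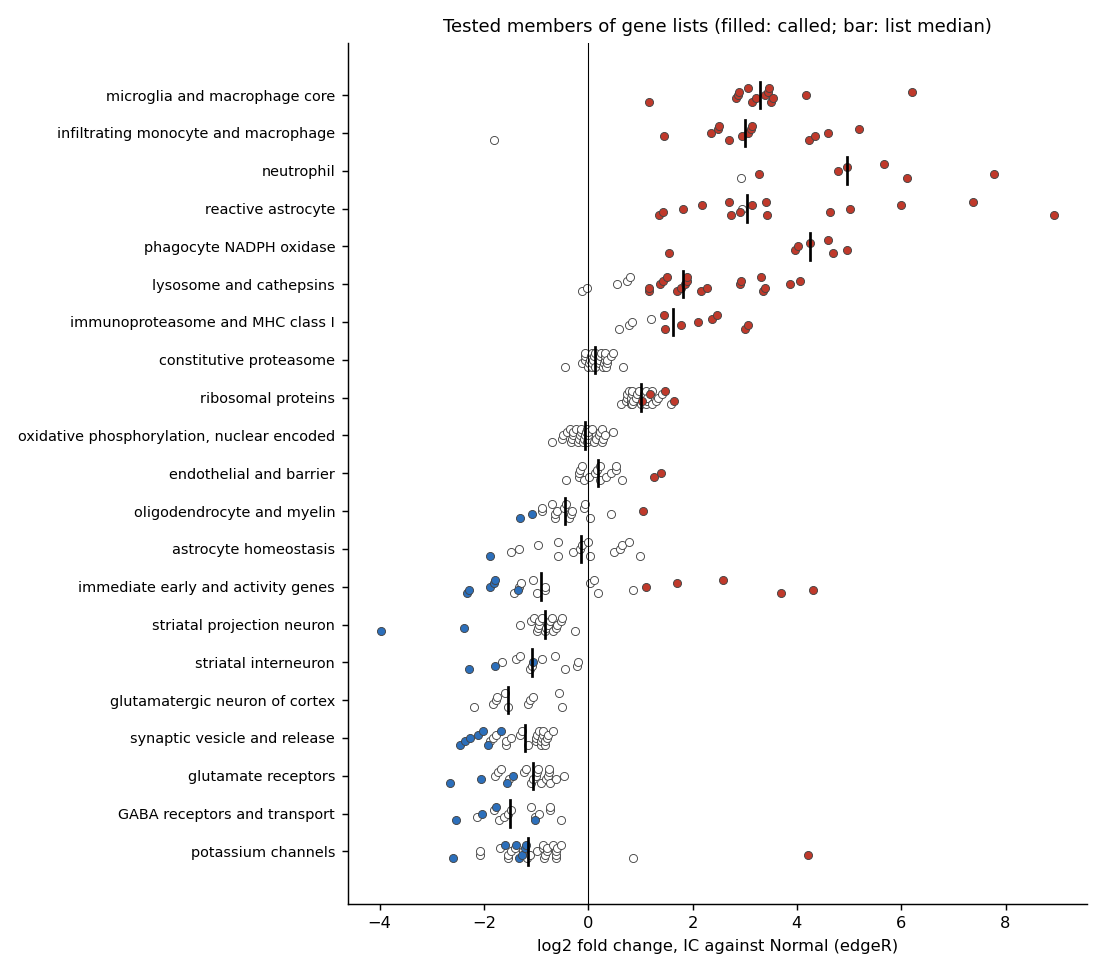
The log2 fold change (edgeR, IC against Normal) of the tested members of 21 gene lists, 1 point per gene, filled where the gene was called and with a bar at each list median. Immune, lysosomal and reactive astrocyte lists lie to the right, the constitutive proteasome and oxidative phosphorylation lists near 0, and neuronal lists to the left with few filled points.

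Neuronal genes were lower as a group. Over 10 lists of neuronal genes, those of cortical glutamatergic neurons left out, 220 genes were tested. Of these, 217 had a log2 fold change below 0 and the median was -1.06. The list left out held 11 tested genes, with 0 called and a median of -1.54. Over all tested genes 49.8% were below 0. Of the 220, 44 fell (20.0%, against 2.66% of all tested genes) and 1 rose, Kcnn4, a calcium-activated potassium channel that microglia also carry (log2 fold change 4.21, adjusted p = 0.00236). The number of calls moved with the rats fitted: 44 became 2 without Normal replicate 3, 9 without IC replicate 3, 12 without IC replicate 4, 22 without Normal replicate 1 and 35 without IC replicate 2, and 114 of 219 when only the IC and Normal rats were fitted. The median stayed between -1.16 and -0.90 in these fits. In each of the 10 lists the count of lower genes was smaller in at least 1 fit that left out 1 of the 5 rats, so the counts of the single lists were not stable. Such a fit also has fewer rats to test with, and why the counts fell was not tested. Long genes were lower in general: with the genes split into 5 equal classes of length, the median of all genes ran from 0.259 in the shortest to -0.290 in the longest. The neuronal genes were below these in each class, with medians of -0.979 in the shortest and -1.20 in the longest, and the part that length has in the result was not tested.

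Among genes of striatal projection neurons, the main cell type of the striatum, 0 of the 21 tested members rose and 2 fell (median log2 fold change -0.83). Pde10a, their phosphodiesterase, stood at 100 and 186 TPM in the Normal rats and 38.6, 25.1 and 21.7 TPM in the IC rats (log2 fold change -2.38, SE 0.54, adjusted p = 0.0131), and Oprm1, the mu opioid receptor, at 1.09 and 5.21 TPM in the Normal rats and 0.121, 0.223 and 0.26 TPM in the IC rats (log2 fold change -3.96, SE 0.72, adjusted p = 0.00369). Penk, proenkephalin, stood at 2500 and 2210 TPM in the Normal rats and 2570, 1050 and 2470 TPM in the IC rats (log2 fold change -0.25, adjusted p = 0.766), and Ppp1r1b, which encodes DARPP-32, at 2290 and 2100 TPM in the Normal rats and 1670, 944 and 1820 TPM in the IC rats (log2 fold change -0.61, adjusted p = 0.348), so the most abundant genes of these neurons were not called. Among interneuron genes, 0 of the 13 tested members rose and 3 fell (median log2 fold change -1.07). Nos1, neuronal nitric oxide synthase, stood at 6.45 and 12 TPM in the Normal rats and 2.98, 1.3 and 1.57 TPM in the IC rats (log2 fold change -2.28, SE 0.51, adjusted p = 0.012), and Sst, somatostatin, at 372 and 339 TPM in the Normal rats and 197, 130 and 202 TPM in the IC rats (log2 fold change -1.06, SE 0.30, adjusted p = 0.0347). Among genes of cortical glutamatergic neurons, 0 of 11 were called by edgeR (1 at an unadjusted p under 0.05), DESeq2 called 0, and 3 were called lower with only the IC and Normal rats fitted. The median was -1.54. The Normal rats themselves lay 0.59 below and above their mean in log2 CPM there, the widest gap between them of the neuronal lists. Among general neuronal genes, 0 of the 15 tested members rose and 4 fell (median log2 fold change -1.09). Tubb3, a neuronal tubulin, stood at 442 and 503 TPM in the Normal rats and 261, 201 and 228 TPM in the IC rats (log2 fold change -1.09, SE 0.28, adjusted p = 0.0249), Gad2, a synthetic enzyme of GABA, at 123 and 209 TPM in the Normal rats and 77.1, 48.4 and 52.8 TPM in the IC rats (log2 fold change -1.52, SE 0.40, adjusted p = 0.0254), and Snap25, of the release machinery, at 1180 and 1620 TPM in the Normal rats and 753, 389 and 607 TPM in the IC rats (log2 fold change -1.30, adjusted p = 0.0829). The call of Sst was lost without IC replicate 2 (adjusted p = 0.0623). The calls of Pde10a, Nos1, Sst, Tubb3 and Gad2 were lost without IC replicate 3 (adjusted p = 0.058 to 0.12). The calls of Pde10a, Tubb3 and Gad2 were lost without IC replicate 4 (adjusted p = 0.0555 to 0.0788). The calls of Sst and Tubb3 were lost without Normal replicate 1 (adjusted p = 0.0922 to 0.162). The calls of Pde10a, Oprm1, Nos1, Sst, Tubb3 and Gad2 were lost without Normal replicate 3 (adjusted p = 0.0954 to 0.237).

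Among genes of synaptic vesicles and release, 0 of the 30 tested members rose and 7 fell (median log2 fold change -1.21). Rab3c, a vesicle GTPase, stood at 10.7 and 29 TPM in the Normal rats and 4.48, 2.81 and 3.78 TPM in the IC rats (log2 fold change -2.45, SE 0.48, adjusted p = 0.00572), and Vamp2, the vesicle SNARE, at 690 and 739 TPM in the Normal rats and 499, 330 and 453 TPM in the IC rats (log2 fold change -0.79, adjusted p = 0.0955). Of the postsynaptic genes, 0 of the 30 tested members rose and 4 fell (median log2 fold change -1.06). Ppp3ca, the catalytic subunit of calcineurin, stood at 477 and 618 TPM in the Normal rats and 277, 187 and 249 TPM in the IC rats (log2 fold change -1.25, SE 0.36, adjusted p = 0.0376), among the largest losses in TPM. Of the glutamate receptors, 0 of the 23 tested members rose and 4 fell (median log2 fold change -1.06). Grin2a, an NMDA receptor subunit, stood at 6.8 and 30.9 TPM in the Normal rats and 4.59, 2.54 and 2.08 TPM in the IC rats (log2 fold change -2.64, SE 0.69, adjusted p = 0.0241), with a wide gap between the Normal rats, and Grin1, the obligate subunit, at 242 and 276 TPM in the Normal rats and 198, 125 and 161 TPM in the IC rats (log2 fold change -0.73, adjusted p = 0.104). Of the GABA receptor and transport genes, 0 of the 16 tested members rose and 4 fell (median log2 fold change -1.51), with Gabrb2 at 23.3 and 71.4 TPM in the Normal rats and 10.2, 8.8 and 6.07 TPM in the IC rats (log2 fold change -2.53, SE 0.68, adjusted p = 0.0266). The calls of Ppp3ca and Gabrb2 were lost without IC replicate 2 (adjusted p = 0.0548 to 0.0618). The calls of Ppp3ca, Grin2a and Gabrb2 were lost without IC replicate 3 or IC replicate 4 (adjusted p = 0.0766 to 0.136). The call of Ppp3ca was lost without Normal replicate 1 (adjusted p = 0.0966). The calls of Rab3c, Ppp3ca, Grin2a and Gabrb2 were lost without Normal replicate 3 (adjusted p = 0.117 to 0.408).

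Of the dopamine and cAMP genes, 0 of the 29 tested members rose and 4 fell (median log2 fold change -0.96), and Rasgrp2, a Rap1 activator of striatal neurons, stood at 131 and 135 TPM in the Normal rats and 73.4, 64.4 and 62.2 TPM in the IC rats (log2 fold change -1.05, SE 0.28, adjusted p = 0.0277). Of the sodium and calcium channels, 0 of the 25 tested members rose and 7 fell (median log2 fold change -1.16). Scn8a, a sodium channel of axon initial segments, stood at 23.7 and 62.1 TPM in the Normal rats and 15.6, 11.7 and 8.02 TPM in the IC rats (log2 fold change -1.91, SE 0.50, adjusted p = 0.0259). Of the potassium channels, 1 of the 32 tested members rose and 7 fell (median log2 fold change -1.15). Kcnq3, of the M current, stood at 22.3 and 54.7 TPM in the Normal rats and 9.79, 5.95 and 3.86 TPM in the IC rats (log2 fold change -2.60, SE 0.61, adjusted p = 0.0145). The call of Rasgrp2 was lost without IC replicate 2 or Normal replicate 1 (adjusted p = 0.0527 to 0.118). The calls of Rasgrp2, Scn8a and Kcnq3 were lost without IC replicate 3, IC replicate 4 or Normal replicate 3 (adjusted p = 0.0609 to 0.33).

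**Figure D5:**
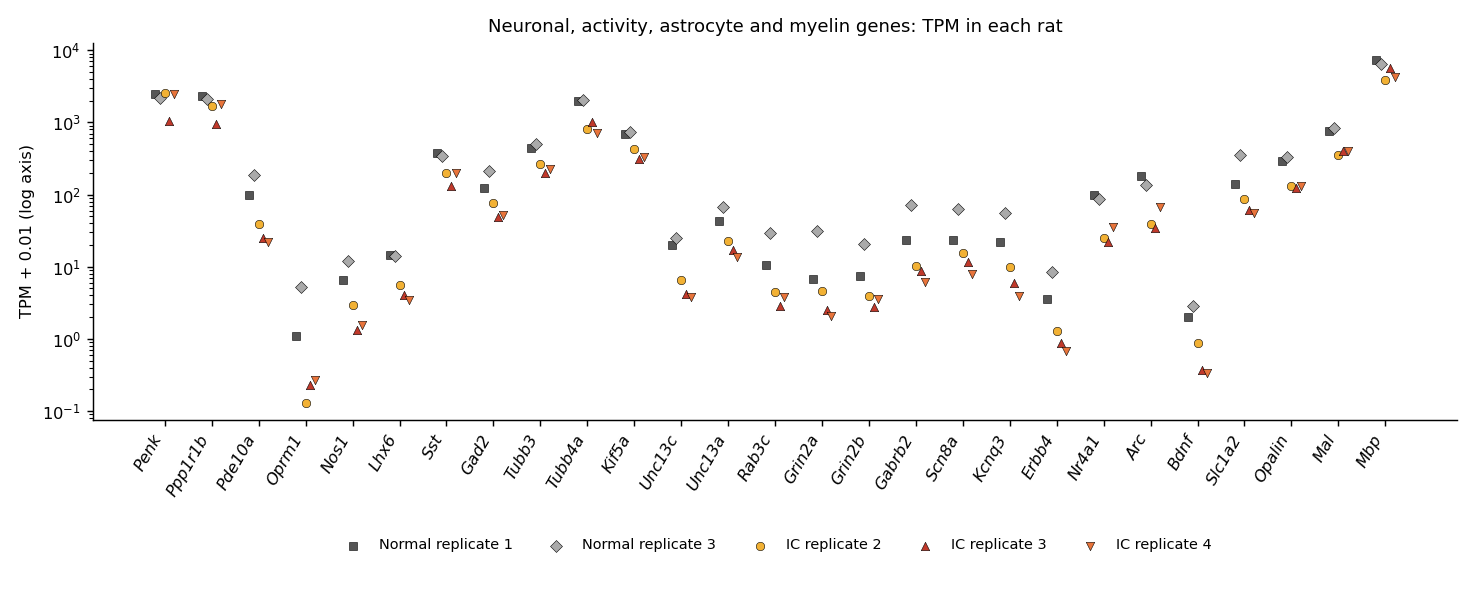
TPM plus 0.01 of 27 genes in each of the 5 rats, on a log axis, with a symbol per rat. In 26 of them the 3 IC rats lie below both Normal rats, as for Pde10a, while Penk overlaps, and Normal replicate 3 is above Normal replicate 1 in the synaptic genes from Unc13c to Kcnq3.

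Immediate early genes moved both ways: 5 of the 22 tested members rose and 6 fell (median log2 fold change -0.91). The immediate early genes that rose numbered 3 without IC replicate 3 or Normal replicate 3. The immediate early genes that fell numbered 2 without IC replicate 3 or Normal replicate 3 and 3 without Normal replicate 1. Those that rose are induced by stress as well as by activity. Fosl1, an AP-1 subunit, stood at 0.0366 and 0.187 TPM in the Normal rats and 1.17, 3.84 and 2.17 TPM in the IC rats (log2 fold change 4.31, SE 0.77, adjusted p = 0.00327), and Atf3 at 0.893 and 1.4 TPM in the Normal rats and 8.19, 23.7 and 14.6 TPM in the IC rats (log2 fold change 3.69, SE 0.51, adjusted p = 7.52e-04). Those that fell included Arc, an effector of synaptic plasticity, at 183 and 136 TPM in the Normal rats and 39.4, 34.6 and 67.8 TPM in the IC rats (log2 fold change -1.80, SE 0.49, adjusted p = 0.0293), and Nr4a1, a nuclear receptor, at 100 and 86.8 TPM in the Normal rats and 24.9, 22.3 and 35.9 TPM in the IC rats (log2 fold change -1.80, SE 0.26, adjusted p = 9.42e-04). Of the neurotrophic factors and receptors, 2 of the 18 tested members rose and 2 fell (median log2 fold change -0.19). The shares were 11.1% each, against 10.9% higher and 2.66% lower over all tested genes. Bdnf stood at 1.97 and 2.87 TPM in the Normal rats and 0.86, 0.359 and 0.326 TPM in the IC rats (log2 fold change -2.28, SE 0.54, adjusted p = 0.0157), and Igf1, which phagocytes also make, at 1.72 and 4.05 TPM in the Normal rats and 13.6, 37.5 and 11.4 TPM in the IC rats (log2 fold change 2.79, SE 0.57, adjusted p = 0.00684). The call of Arc was lost without IC replicate 2 (adjusted p = 0.0803). The calls of Arc and Bdnf were lost without IC replicate 3 or Normal replicate 3 (adjusted p = 0.0737 to 0.132). The call of Bdnf was lost without IC replicate 4 (adjusted p = 0.061). The calls of Arc and Igf1 were lost without Normal replicate 1 (adjusted p = 0.074 to 0.151).

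Among oligodendrocyte and myelin genes, 1 of the 18 tested members rose and 2 fell (median log2 fold change -0.44), where 11.1% fell against 2.66% of all tested genes. Mal, a proteolipid, stood at 748 and 838 TPM in the Normal rats and 357, 404 and 401 TPM in the IC rats (log2 fold change -1.08, SE 0.34, adjusted p = 0.0492), and Opalin, a membrane protein of mature oligodendrocytes, at 291 and 332 TPM in the Normal rats and 132, 122 and 133 TPM in the IC rats (log2 fold change -1.32, SE 0.28, adjusted p = 0.00946). Mbp, myelin basic protein, stood at 7360 and 6400 TPM in the Normal rats and 3880, 5700 and 4300 TPM in the IC rats (log2 fold change -0.64, adjusted p = 0.126). Tf, transferrin, which oligodendrocytes make, was the member that rose (log2 fold change 1.05, adjusted p = 0.0352). Of the precursor genes, 1 of the 14 tested members rose and 0 fell (median log2 fold change 0.42), and the one that rose was Vcan, versican (log2 fold change 1.45, adjusted p = 0.00614). The share of 7.14% compares with 10.9% of all tested genes. Vcan is also a member of the monocyte and macrophage list, so it is not particular to precursors here. Of the cholesterol synthesis genes, 0 of the 21 tested members rose and 4 fell (median log2 fold change -0.60). The cholesterol synthesis genes that fell numbered 0 without Normal replicate 3, 1 without IC replicate 4 and 2 without IC replicate 2. Hmgcs1, an early enzyme of the pathway, stood at 177 and 240 TPM in the Normal rats and 89.5, 125 and 75.7 TPM in the IC rats (log2 fold change -1.17, SE 0.28, adjusted p = 0.015). Of 34 nuclear genes of oxidative phosphorylation, 0 were called by edgeR in either direction (3 at an unadjusted p under 0.05) and 0 by DESeq2, with a median of -0.07. Of the ependymal and choroid plexus genes, 1 of 11 rose, Folr1 (log2 fold change 1.83, adjusted p = 0.0212), a share of 9.09% against 10.9% of all tested genes. The call of Mal was lost without IC replicate 2 (adjusted p = 0.115). The calls of Mal, Tf and Folr1 were lost without IC replicate 3 (adjusted p = 0.0769 to 0.137). The calls of Mal, Tf, Hmgcs1 and Folr1 were lost without IC replicate 4 (adjusted p = 0.0502 to 0.0936). The calls of Mal, Tf, Vcan and Folr1 were lost without Normal replicate 1 (adjusted p = 0.0676 to 0.184). The calls of Mal, Opalin, Tf, Vcan, Hmgcs1 and Folr1 were lost without Normal replicate 3 (adjusted p = 0.0555 to 0.226).

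Over all tested genes, further named genes with the largest changes were Slpi, Lilrb4, Serpina3a and Trem1. They were picked by the size of the change and passed the filter on counts only through the injured rats. Each adjusted p given for them is therefore a description and no separate support. Slpi, a protease inhibitor of neutrophils and epithelia, had 0 counts in the Normal and 579 in the IC rats, at least 77.6-fold higher (adjusted p = 0.00339). Lilrb4, an inhibitory receptor of myeloid cells, had 3 and 3515 counts, a CPM ratio of 947 (95% exact interval 324 to 4590, adjusted p = 2.91e-04). Trem1, an amplifying receptor of neutrophils and monocytes, had 0 and 280 counts, at least 35.4-fold higher (adjusted p = 0.0028), and Serpina3a 0 and 283, at least 36.7-fold higher (adjusted p = 0.00274). Of the genes that fell, Erbb4, a neuregulin receptor of interneurons, stood at 3.6 and 8.54 TPM in the Normal rats and 1.29, 0.863 and 0.664 TPM in the IC rats (log2 fold change -2.73, SE 0.49, adjusted p = 0.00348), and Acvr1c, an activin receptor, at 7.77 and 22.5 TPM in the Normal rats and 2.21, 2.43 and 1.83 TPM in the IC rats (log2 fold change -2.83, SE 0.63, adjusted p = 0.0112). In transcript share, Tubb4a, a tubulin of oligodendrocytes and neurons, stood at 2000 and 2020 TPM in the Normal rats and 806, 999 and 724 TPM in the IC rats (log2 fold change -1.32, SE 0.22, adjusted p = 0.00244), the largest loss in TPM among genes called lower. Tuba4a and Kif5a, of axonal transport, also fell (log2 fold change -1.02, adjusted p = 0.0225 for Tuba4a and log2 fold change -1.07, adjusted p = 0.0395 for Kif5a). The call of Kif5a was lost without IC replicate 2 or IC replicate 4 (adjusted p = 0.0544 to 0.103). The calls of Tuba4a and Kif5a were lost without IC replicate 3 or Normal replicate 1 (adjusted p = 0.0693 to 0.138). The calls of Erbb4, Acvr1c, Tuba4a and Kif5a were lost without Normal replicate 3 (adjusted p = 0.0752 to 0.198).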

How the data were processed

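Striatal RNA of separate rats was sequenced at day 3 (TruSeq Stranded mRNA, 150 bp paired ends). Per the submitters' processing notes, reads were processed with fastp 0.20.0, FastQC 0.11.9, HISAT2 2.1.0, SAMtools 1.9 and featureCounts on build mRatBN7.2, and the annotation release is not given in the sources used here. The authors deposited raw counts per gene and TPM, which is corrected for gene length and depth, for 30560 genes, and every value column matched a sample label.

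Counts were fitted with edgeR 4.0.16 (R 4.3.3): filterByExpr over 4 groups kept 15742 genes, TMM factors scaled the libraries, and 1 quasi-likelihood model over 11 rats shared its estimate of spread across the IC, IS, IS-HA and Normal groups. A gene was called at an adjusted p under 0.05 (Benjamini-Hochberg) and a log2 fold change of at least 1 in size. Each SE was derived by dividing the size of the change by the root of F. With 3 rats against 2, an exact test of a single gene cannot reach 0.05, so every adjusted p is that of the edgeR fit. TPM was used for levels and CPM, computed from the counts, for list levels. Relative gene length was derived from the ratio of counts to TPM.

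Of 1182 list genes, 22 had no match. The genes and lists were chosen with earlier results of these data known. Most genes were named by rule: the largest changes of each list and of all genes, abundant members that were not called, members that moved against their list, and genes the study measured as protein. Genes picked after their values were seen are marked where they are named, and Alas2 is another named outside this rule. A gene with 0 counts in the Normal rats was compared with a floor of 3 counts per library, and one with 1 to 3 counts by its ratio with an exact 95% interval, which covers counting error only. Promoters came from RefSeq on GRCr8, which is not the build of the files. The script was tested on simulated counts. Alternatives were DESeq2 1.42.0, its size factors, other filters, library size alone, a stricter fold, fewer rats and each rat left out.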

Additional observations from a re-analysis of the deposited data

How the results depend on the processing

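No paired analysis was possible because the IC and Normal rats were different animals, and the 1 replicate number they share does not pair them. The 1720 higher and 418 lower genes became 1886 and 778 with the DESeq2 Wald test, 846 and 20 when the fold itself was tested against 1 (glmTreat), 978 and 86 with a log2 fold change of at least 2, and 2040 and 730 with no fold cutoff. They became 2045 and 211 with library size alone, 2020 and 1087 with only the IC and Normal rats, and 2030 and 965 without IS-HA replicate 2. With 1 IC or Normal rat left out, the counts ran from 793 to 1743 higher and from 28 to 326 lower, and the cause was not tested. Higher genes made up 80.4% of the calls, 90.6% with library size alone, which moved the median of all genes by 0.14 on the log2 scale, and 65.0% with only the IC and Normal rats. Of the 342 named genes, 226 were called and 0 of these changed direction as a call. The filter of at least 10 counts in every rat left 159 of the 226 with a value in all 13 alternatives, and 76 of the 159 kept the call in all of them. The calls lost most often were those without Normal replicate 3 (113), without IC replicate 3 (63), without Normal replicate 1 (56) and without IC replicate 4 (50). Of 64 list medians, 7 changed sign in some alternative, and these were at most 0.372 in size as reported. The depth of the Normal rats limits genes near 0, since 3 counts per library are worth 0.167 CPM on average.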
